A study of Mus musculus with 109 samples.

Results

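The genes described are the nuclear-encoded subunits and assembly factors of oxidative phosphorylation in mouse microglia, the resident macrophages of the brain. They are every gene of the 4 deposited RNA tables whose symbol begins with Nduf, Uqcr, Cox4, Cox5, Cox6, Cox7, Cox8 or Atp5, together with Cyc1, Cycs, Sdha, Sdhb, Sdhc and Sdhd, with symbols marked as pseudogenes left out. The rule found 91 of 13902 genes, and no measured value entered it. By role, 29 are accessory subunits of complex I, 7 are its core subunits and 8 are its assembly factors. Complex II has 4 members, complex III has 9, complex IV has 16, complex V (the ATP synthase) has 15 and cytochrome c has 1. The other 2, Atp5s and Atp5sl, carry ATP synthase symbols but stand in RefSeq as Dmac2l and Dmac2.

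Microglia were sorted from brain on CD45 and CD11b, and their RNA was profiled by MARS-seq, which reads a tag near the 3′ end of each transcript. Mice received 2.5 mg/kg lipopolysaccharide (LPS), a bacterial cell wall component, by peripheral injection, or were left untreated. The Il10ra mutants (CX3CR1-CreER:IL10Rafl/fl) lose the interleukin-10 receptor chain in cells that express the Cx3cr1-driven Cre recombinase, and gave 9 untreated libraries, 7 at 6 h, 5 at 24 h and 5 at 48 h. Their floxed controls (IL10Rafl/fl), which carry no Cre, gave 6 untreated libraries, 6 at 6 h, 4 at 24 h, 6 at 48 h and 4 at 7 days. The double mutants (CX3CR1-CreER:IL10Rafl/fl:TNFfl/fl), which also lose the cytokine Tnf in those cells, gave 5 untreated libraries, 6 at 6 h and 4 at 48 h. Their doubly floxed controls (IL10Rafl/fl:TNFfl/fl, no Cre) gave 6 untreated libraries, 5 at 6 h and 6 at 48 h. Untreated C57BL/6 mice gave 4 libraries. The sources used here give no age for the mice. A further 48 h library, whose labels name both the doubly floxed control and the double mutant, was left out of every test; its column is marked as a mistake. The column of untreated double mutant library 4 carries the same mark, but its labels do not conflict and it was kept. The labels name 7 experiments, lettered A to G here, and the fits hold a term for them except at 7 days, whose libraries come from experiment D alone.

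Oxidative phosphorylation passes electrons from NADH (at complex I) and succinate (at complex II) through complex III and cytochrome c to oxygen at complex IV, and the proton gradient this builds drives ATP synthesis at complex V. Complexes I, III, IV and V are built from proteins of both genomes, whereas complex II is wholly nuclear-encoded. In macrophages, LPS is known to shift metabolism towards glycolysis, and mitochondrial respiration is studied as part of that response.

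The libraries held 540642 to 2489084 reads. Il10ra had 15.9 to 123.6 normalised reads over the Il10ra mutant libraries, against 268 to 745 over the floxed libraries, and 7.14 to 76.4 in double mutant libraries, against 237 to 533 in doubly floxed ones. Tnf had 0 to 31.1 in double mutant libraries, against 5.65 to 603 in doubly floxed ones. The share of reads from the mitochondrial genome was low in a few libraries, at 0.0511% and 0.247% in 6 h floxed libraries 1 and 3, 0.0948% in untreated double mutant library 1 and 0.195% in untreated floxed library 1. The summed share of 8 microglia markers fell with LPS in the floxed controls, to 1.72 to 1.84% at 6 h, 1.31 to 2.09% at 24 h and 2.14 to 2.47% at 48 h, against 3.34 to 3.54% in untreated libraries. It was 0.863 to 1.44% in 48 h Il10ra mutants, and its part in the results on oxidative phosphorylation was not tested. In sorted bulk RNA, fewer cells of a type and less RNA per cell cannot be told apart.

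Of the 90 members listed in the table of controls, 88 passed the filter on low values, as did 89 in the Il10ra mutant table and 90 in the double mutant table. In untreated floxed controls 79 of the 90 had a mean of at least 20 normalised reads and 3 had a mean under 5, namely Cox8b, Cox7a1 and Cycs. Several members have near-identical processed copies in the genome, and no source used here says how reads shared with such copies were counted, so the levels of those members are uncertain.

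In untreated floxed microglia the members together took 1.06 to 1.29% of all reads. That share was 0.978 to 1.27% at 6 h, 1.3 to 1.44% at 24 h, 1.37 to 1.62% at 48 h and 1.08 to 1.22% at 7 days, so the libraries at 24 h and 48 h lay above every untreated one and those at 6 h and 7 days overlapped them. In Il10ra mutants it was 1.04 to 1.14% untreated, 0.962 to 1.12% at 6 h, 1.3 to 1.38% at 24 h and 1.33 to 1.6% at 48 h, the same order of ranges. In C57BL/6 microglia it was 1.14 to 1.26%. In the doubly floxed and double mutant groups the libraries of experiment F stood above those of experiment E after LPS. The 6 h doubly floxed libraries had 1.66 to 2.34% in experiment F and 1.12 to 1.22% in experiment E, and the 48 h ones 1.92 to 2.15% in experiment F and 1.54 to 1.7% in experiment E. The genome that mitochondria themselves carry took 0.483 to 1.49% of reads in 48 h floxed libraries, against 0.195 to 1.10% in untreated ones, and 1.5 to 2.61% in 48 h doubly floxed libraries, against 0.994 to 1.34% in untreated ones.

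**Figure D1:**
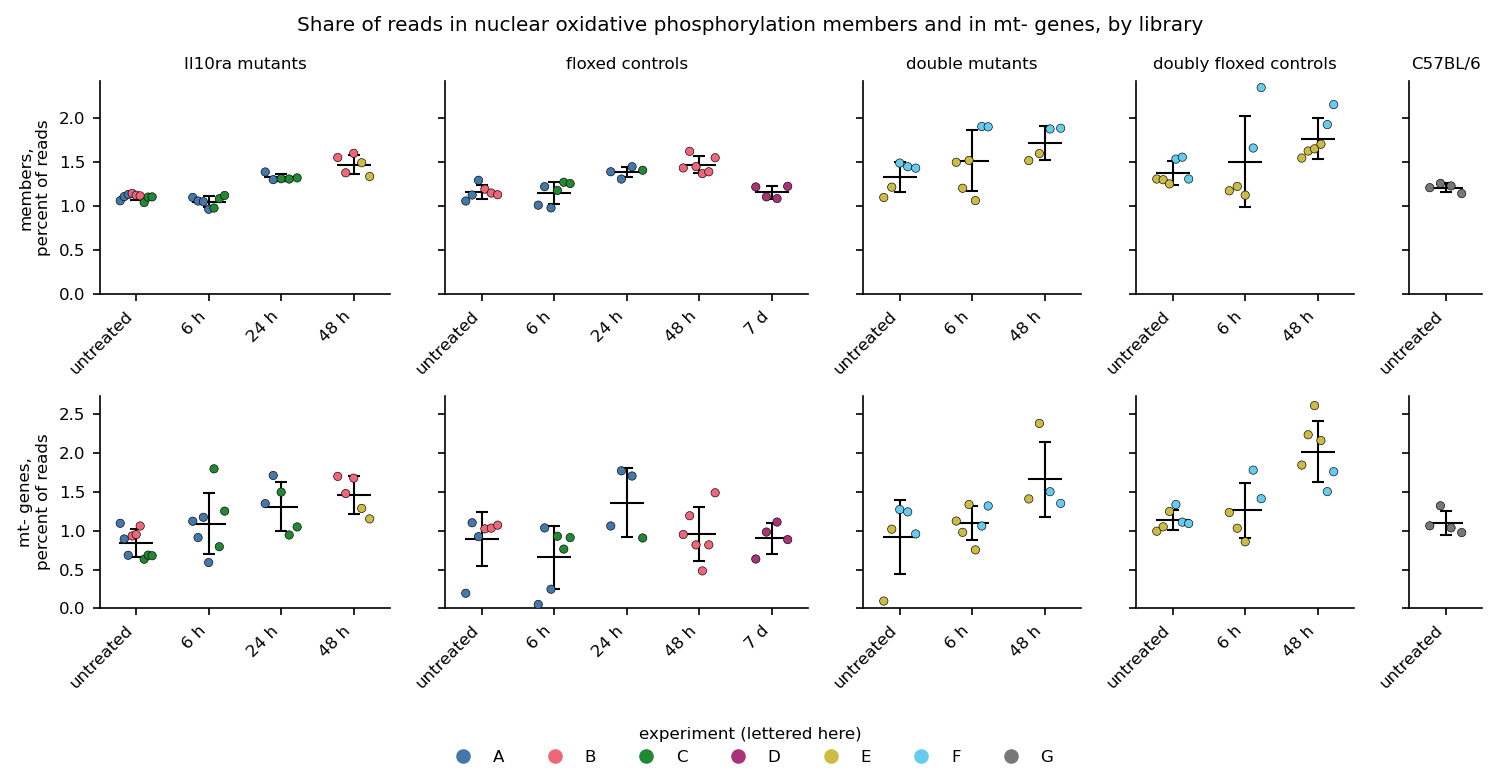
Percent of reads per library in the nuclear oxidative phosphorylation members (top) and in genes of the mitochondrial genome (bottom), by genotype and time after LPS, where points are libraries coloured by experiment and bars are the mean ± SD. In floxed controls all 6 libraries at 48 h have a members' share between 1.37 and 1.62%, overlapping the 24 h range. They come from experiment B, which holds no 6 h or 24 h floxed library, so those times differ in experiment too. Among doubly floxed controls the experiment F libraries stand above those of experiment E after LPS.

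At 48 h after LPS, members of every complex were higher in both kinds of control microglia. In floxed controls 34 of 88 members tested were called higher and 1 lower at 48 h against untreated, where a call is a Benjamini-Hochberg adjusted p under 0.05 over all genes tested. Across all 11103 genes tested, 11.1% were called higher and 7.9% lower. The median log2 fold change of the members was 0.39, against -0.02 over all genes tested. In doubly floxed controls, which share no library with these, 42 of 90 members were called higher and 0 lower, against 13.8% and 9.83% of all genes, with a median of 0.43 against 0.00. By edgeR and by DESeq2 the count was 43 higher and 0 lower, where edgeR called 2898 and DESeq2 2977 of all genes in either direction. Called in both sets of controls were 26 members, which is 76.5% of the 34 and 61.9% of the 42. The same overlap was not counted over all genes, so it is not read as particular to the members. Experiment B holds every 48 h floxed library, so with the experiment term the floxed fold changes rest on its 3 untreated libraries. The ranges and medians of reads given below are over all 6 untreated floxed libraries. Within experiment B alone 46 members were called higher and 1 lower in floxed controls, and without untreated floxed library 5 the count of called members was 22. Of the doubly floxed counts, 18 members were higher within experiment E alone, 25 within experiment F alone and 25 without the experiment term, and 0 were lower in each. Counts under such settings, here and below, mostly stand without the share of all genes called in the same setting. A change in them is therefore not read as particular to the members.

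Subunits of the ATP synthase made up a large block of these calls, with 9 of 15 higher in floxed and 12 of 15 in doubly floxed controls, at median log2 fold changes of 0.51 and 0.53. Atp5g3, 1 of 3 genes that encode the same c subunit of the proton-driven rotor, had 462 to 571 normalised reads (median 525.98) in floxed microglia at 48 h, against 224 to 377 (median 275) in untreated floxed microglia (log2 fold change 1.11 ± 0.16, adjusted p = 7.11e-06). The ranges did not overlap. Atp5g3 in doubly floxed controls had 431 to 957 (median 489) at 48 h, against 299 to 601 (median 492) untreated (log2 fold change 0.47 ± 0.14, adjusted p = 0.0107), with overlap between the groups. Atp5g3 was not called after quantile normalisation, without the experiment term or within experiment E alone (log2 fold changes 0.27 to 0.33). Atp5g3 had a log2 fold change of 0.72 within experiment F alone. Atp5b, the catalytic beta subunit, had 515 to 740.2 normalised reads (median 644) in doubly floxed microglia at 48 h, against 377 to 480.6 (median 468) in untreated doubly floxed microglia (log2 fold change 0.49 ± 0.10, adjusted p = 0.00026), without overlap. Atp5b was not called within experiment F alone (log2 fold change 0.43). In floxed controls its values of 552 to 747 (median 683) at 48 h, against 470.5 to 587 (median 523) untreated, overlapped (log2 fold change 0.39 ± 0.13, adjusted p = 0.0332). Atp5b was not called after quantile normalisation, without untreated floxed library 4, 5 or 6 or without 48 h floxed library 2, 4 or 6 (log2 fold changes 0.26 to 0.43). Atp5k, which encodes the membrane subunit e, had 176 to 300.04 normalised reads (median 233) in doubly floxed microglia at 48 h, against 83.6 to 149 (median 123) in untreated doubly floxed microglia (log2 fold change 0.98 ± 0.31, adjusted p = 0.0178), and no library of the groups overlapped. Atp5k was not called within experiment E alone, with mitochondrial share as a covariate or without untreated doubly floxed library 6 (log2 fold changes 0.71 to 0.86).

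Complex IV, which reduces oxygen, had 7 of 14 subunits higher in floxed and 11 of 16 in doubly floxed controls at 48 h, at medians of 0.60 and 0.79. Cox6a1, the broadly expressed isoform of subunit 6A, had 816 to 1018 normalised reads (median 925) in floxed microglia at 48 h, against 398 to 579 (median 419) in untreated floxed microglia (log2 fold change 1.07 ± 0.15, adjusted p = 3.88e-06), so every 48 h library lay above every untreated one. Cox6a1 in doubly floxed controls had 871 to 1692 (median 954) at 48 h, against 513 to 953 (median 662) untreated (log2 fold change 0.82 ± 0.15, adjusted p = 3.66e-05), and the groups overlapped. Cox6a1 was not called without the experiment term (log2 fold change 0.69). Cox5a and Cox5b encode nuclear subunits that cap the catalytic core. Cox5a had 229.6 to 273 normalised reads (median 246) in floxed microglia at 48 h, against 109.3 to 154 (median 121) in untreated floxed microglia (log2 fold change 1.06 ± 0.15, adjusted p = 3.88e-06), with no overlap. Cox5b had 269 to 348 normalised reads (median 318) in floxed microglia at 48 h, against 127 to 193 (median 163) in untreated floxed microglia (log2 fold change 0.83 ± 0.14, adjusted p = 5.13e-05). Cox5b in doubly floxed controls had 331 to 484 (median 368) at 48 h, against 184 to 247 (median 212) untreated (log2 fold change 0.90 ± 0.13, adjusted p = 2.06e-06), and neither pair of groups overlapped.

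Cox7c, a small membrane subunit of complex IV, had 154 to 165 normalised reads (median 159) in floxed microglia at 48 h, against 63.2 to 127 (median 81.5) in untreated floxed microglia (log2 fold change 1.10 ± 0.22, adjusted p = 0.000688), again without overlap. Ndufa4, named for complex I but assigned to complex IV, had 26.5 to 51.3 normalised reads (median 40.6) in floxed microglia at 48 h, against 7.51 to 27.4 (median 18.5) in untreated floxed microglia (log2 fold change 1.11 ± 0.31, adjusted p = 0.0125), with overlapping ranges. Ndufa4 was not called without untreated floxed library 5 (log2 fold change 1.00). Cox6a2, the isoform of subunit 6A known from heart and skeletal muscle, had the largest fold change among the called members with a mean of at least 20 in doubly floxed controls. It had 153 to 388 normalised reads (median 270.2) in doubly floxed microglia at 48 h, against 71.4 to 125 (median 80.3) in untreated doubly floxed microglia (log2 fold change 1.68 ± 0.24, adjusted p = 6.91e-07), and no library overlapped. In floxed controls Cox6a2 had 71.8 to 137 (median 98.7) at 48 h, against 30.03 to 69.7 (median 49.1) untreated (log2 fold change 0.88 ± 0.28, adjusted p = 0.0252), also without overlap. Cox6a2 was not called without untreated floxed library 5 or 6 or without 48 h floxed library 6 (log2 fold changes 0.79 to 0.82). Cox8a, the broadly expressed isoform of subunit 8, had 393 to 619 normalised reads (median 428) in doubly floxed microglia at 48 h, against 177 to 325 (median 228) in untreated doubly floxed microglia (log2 fold change 1.05 ± 0.27, adjusted p = 0.00311), with no overlap. Cox8a was not called without the experiment term or within experiment E alone (log2 fold changes 0.92 to 0.97). Cox4i1, a regulatory subunit and the member of complex IV with the highest untreated mean, had 1059.6 to 1208 normalised reads (median 1182) in doubly floxed microglia at 48 h, against 689.8 to 853 (median 740.0) in untreated doubly floxed microglia (log2 fold change 0.69 ± 0.14, adjusted p = 0.000162), without overlap. Cox4i1 had a log2 fold change of 0.45 after quantile normalisation. In floxed controls its values of 781 to 1163 (median 991) at 48 h, against 550.4 to 1119 (median 725) untreated, overlapped and did not pass the test (log2 fold change 0.48 ± 0.21, adjusted p = 0.107).

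Complex III, which passes electrons to cytochrome c, had 4 of 9 members higher at 48 h in each set of controls. Uqcrq, a small ubiquinone-binding subunit, had 336 to 407 normalised reads (median 369) in floxed microglia at 48 h, against 151 to 279 (median 219.9) in untreated floxed microglia (log2 fold change 0.78 ± 0.18, adjusted p = 0.00264). The doubly floxed controls had 409.5 to 587 (median 458) at 48 h, against 232 to 356 (median 249) untreated (log2 fold change 0.92 ± 0.15, adjusted p = 1.39e-05), and neither pair of groups overlapped. Of the 4 members of complex II, 2 were higher in floxed and 1 in doubly floxed controls. Sdhb, its iron-sulphur subunit, had 443 to 532 normalised reads (median 483) in floxed microglia at 48 h, against 298 to 407 (median 335) in untreated floxed microglia (log2 fold change 0.58 ± 0.12, adjusted p = 0.000789), without overlap. Among the doubly floxed controls it had 337 to 492 (median 377) at 48 h, against 260.4 to 355 (median 307) untreated (log2 fold change 0.41 ± 0.10, adjusted p = 0.00124), with overlap. Sdhb was not called within experiment E alone (log2 fold change 0.28). Sdhb had a log2 fold change of 0.61 within experiment F alone. Cycs, which encodes cytochrome c, in floxed controls had 0 to 10.5 (median 4.21) at 48 h, against 0 to 6.26 (median 0.846) untreated, few reads and no call (log2 fold change 0.13 ± 0.76, adjusted p = 0.931). It was called higher in doubly floxed controls at 6 h, with 6.06, 7.92, 8.94, 0 and 1.16 at 6 h, against 0 to 3.71 (median 0) untreated (log2 fold change 1.58 ± 0.62, adjusted p = 0.0368), with overlap. Cycs was not called at a pseudocount of 5, within experiment F alone, with DESeq2, without untreated doubly floxed library 1 or 2 or without 6 h doubly floxed library 1, 2 or 3 (log2 fold changes 0.56 to 2.26). Cycs had a log2 fold change of 2.45 with edgeR. It was also called higher in Il10ra mutants at 48 h, with 8.15, 1.07, 17.6, 1.77 and 12.1 at 48 h, against 0 to 4.01 (median 0) untreated (log2 fold change 2.09 ± 0.84, adjusted p = 0.0477), with overlap. Cycs was not called after quantile normalisation, without untreated Il10ra mutant library 1, 4, 5, 6, 7 or 9 or without 48 h Il10ra mutant library 1 or 3 (log2 fold changes 1.39 to 2.10). Cycs had a log2 fold change of 1.03 at a pseudocount of 5 and 3.24 with DESeq2.

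In complex I the 48 h calls lay mainly among accessory subunits, which surround the core and do not carry its redox centres. Of 28 accessory subunits 11 were higher in floxed and 14 in doubly floxed controls, whereas 1 and 0 of the 7 core subunits were. Ndufa13, an accessory subunit also known as GRIM-19, had 472 to 619.9 normalised reads (median 555) in floxed microglia at 48 h, against 308 to 389.8 (median 342) in untreated floxed microglia (log2 fold change 0.67 ± 0.15, adjusted p = 0.00142), without overlap. Ndufa13 in doubly floxed controls had 515 to 833 (median 618) at 48 h, against 334 to 572 (median 404) untreated (log2 fold change 0.68 ± 0.16, adjusted p = 0.00148), with overlap. Ndufa13 was not called without the experiment term (log2 fold change 0.58). Ndufa1, a small membrane-arm subunit, had 162 to 219 normalised reads (median 197) in doubly floxed microglia at 48 h, against 80.9 to 131.8 (median 96) in untreated doubly floxed microglia (log2 fold change 0.99 ± 0.23, adjusted p = 0.00126), without overlap. Ndufc1, another accessory subunit, had 71.5 to 133 normalised reads (median 89) in doubly floxed microglia at 48 h, against 38.8 to 62.1 (median 44.6) in untreated doubly floxed microglia (log2 fold change 1.06 ± 0.25, adjusted p = 0.00122), likewise separate. Ndufc1 was not called within experiment E alone (log2 fold change 0.90).

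The 1 member called lower at 48 h in floxed controls was Ndufaf4, an assembly factor of complex I. It had 20.2 to 48 normalised reads (median 32.8) in floxed microglia at 48 h, against 21 to 72.1 (median 58.1) in untreated floxed microglia (log2 fold change -1.07 ± 0.31, adjusted p = 0.0145), and the ranges overlapped. Ndufaf4 was not called without the experiment term or without untreated floxed library 4 (log2 fold changes -1.01 to -0.68). In doubly floxed controls Ndufaf4 had 20.7 to 39.6 (median 25.1) at 48 h, against 30.1 to 57.5 (median 36.1) untreated, and was not called (log2 fold change -0.47 ± 0.25, adjusted p = 0.188).

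**Figure D2:**
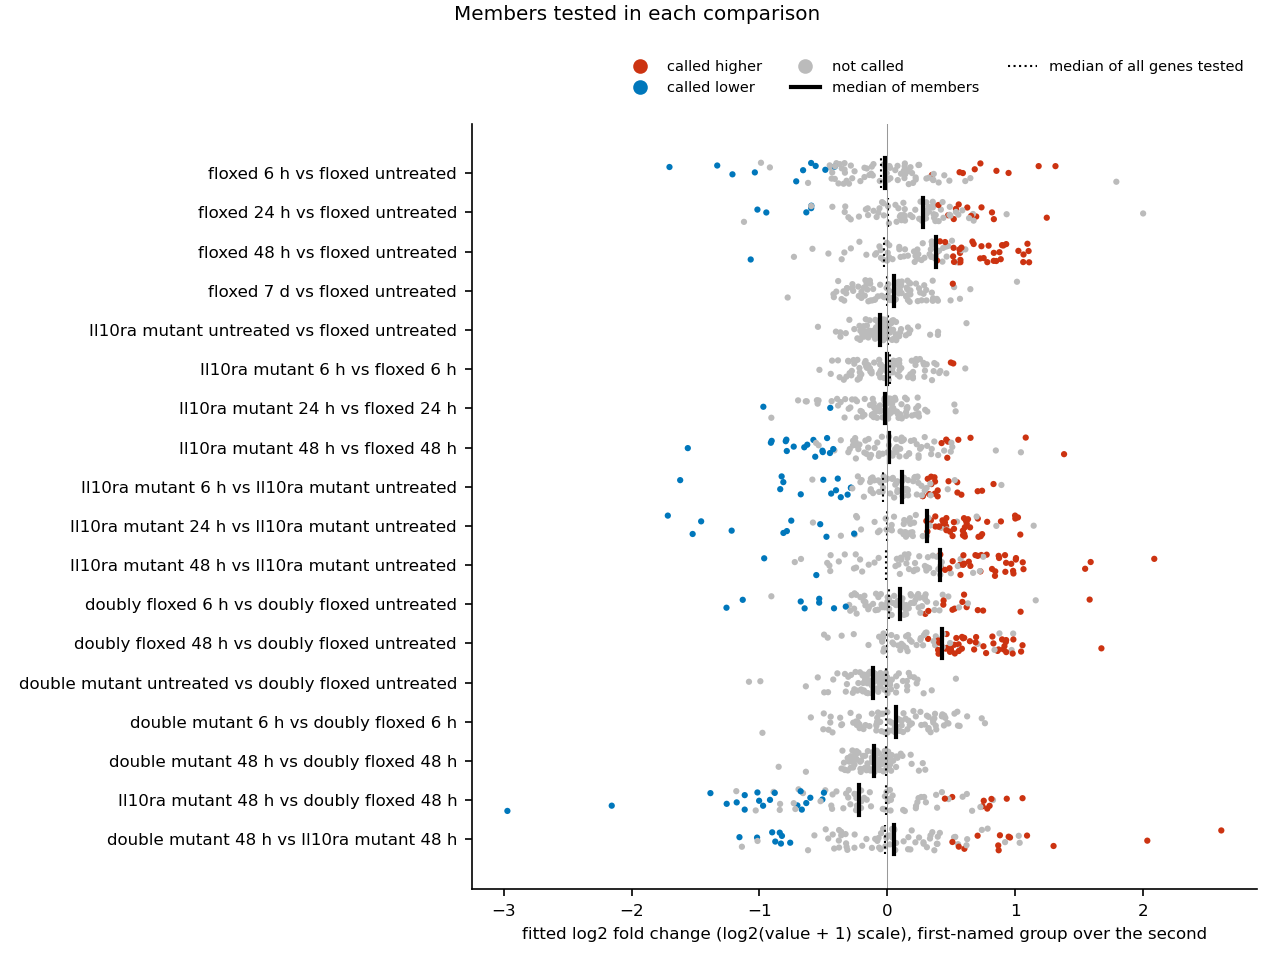
Fitted log2 fold changes of the members tested in each of the comparisons, with points for genes, solid bars for the median of the members and dotted bars for the median of all genes tested. At 48 h the members' median is 0.39 in floxed, 0.43 in doubly floxed and 0.42 in Il10ra mutant microglia against their untreated groups, with the median of all genes near 0.

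Since many members were higher at 48 h, their promoters were searched for binding motifs of factors known for nuclear genes of respiration. RefSeq promoters of GRCm38.p6, 250 bases before and 50 after the start, matched 77 of the 91 members. The core of the NRF1 motif, GCGCATGC on either strand, stood in 13 of the 77 (16.9%), in 3.05% of 27025 genes with a promoter and in 6.26% of the 8866 tested genes with a promoter. The palindrome GCGCATGCGC, which contains that core, stood in 7 members (9.09%), against 1.07% of all genes and 2.5% of tested genes. The YY1 motif AAGATGGC stood in 12 members (15.6%), against 3.19% and 5.83%, and the ETS motif CCGGAAGT in 5 (6.49%), against 4.31% and 9.84%. A match is only a match of letters in this window. Of the 26 members called higher at 48 h in both sets of controls, 22 had a listed promoter and 4 of these held the NRF1 core. The 3 that hold it before the start are shown 5′ to 3′ on the gene's strand, with the motif in capitals: the 250 bases before the start of Atp5k (chr5:108434400-108434649, minus strand), Cox6a1 (chr5:115348959-115349208, minus strand) and Sdhb (chr4:140961021-140961270, plus strand).
Atp5k: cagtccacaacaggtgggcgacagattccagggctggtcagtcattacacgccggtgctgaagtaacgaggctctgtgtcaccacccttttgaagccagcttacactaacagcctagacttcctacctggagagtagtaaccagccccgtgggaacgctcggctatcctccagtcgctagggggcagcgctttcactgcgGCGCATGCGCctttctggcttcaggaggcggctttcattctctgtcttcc
Cox6a1: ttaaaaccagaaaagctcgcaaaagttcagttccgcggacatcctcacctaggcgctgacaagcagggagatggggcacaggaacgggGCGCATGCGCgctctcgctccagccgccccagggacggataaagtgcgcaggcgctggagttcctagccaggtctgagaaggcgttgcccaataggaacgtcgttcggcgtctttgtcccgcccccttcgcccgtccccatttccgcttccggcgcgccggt
Sdhb: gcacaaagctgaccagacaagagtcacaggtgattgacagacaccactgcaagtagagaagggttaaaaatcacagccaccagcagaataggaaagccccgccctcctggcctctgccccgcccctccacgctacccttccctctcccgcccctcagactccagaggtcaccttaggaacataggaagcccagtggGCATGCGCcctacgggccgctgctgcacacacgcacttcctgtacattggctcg

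At 6 h after LPS the members moved in both directions, with ATP synthase subunits and cytochrome c1 higher and Ndufaf7, Ndufb3 and Cox7a2l lower in both sets of controls. In floxed controls 9 members were called higher and 10 lower, against 20.4% higher and 21.1% lower among all genes, so the members' shares of 10.2% and 11.4% lay under the background. Their median was -0.02, against -0.05 over all genes. In doubly floxed controls 13 were higher and 8 lower, against 21.6% and 21.1% of all genes. Both sets shared 7 of the higher members (77.8% of the 9 and 53.8% of the 13) and 6 of the lower ones (60% of the 10 and 75% of the 8). Here too the overlap over all genes was not counted. The balance moved with the scaling and the experiment. In floxed controls quantile normalisation gave 6 higher and 19 lower, experiment A alone 6 and 4, the fit without an experiment term 20 and 17, and the same libraries as normalised for the Il10ra mutant table gave 17 and 12. For doubly floxed controls experiment E alone gave 5 higher and 14 lower, and experiment F alone 21 higher and 2 lower. Left out singly, 6 h floxed library 1 took the floxed count to 12. Only experiment A holds both untreated and 6 h floxed libraries. With the experiment term the floxed fold changes rest on its 3 untreated libraries and mainly on its 6 h ones. Among these, untreated library 1 and 6 h libraries 1 and 3 had a low mitochondrial share. The ranges and medians of reads given below are over all libraries of a group.

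Among the ATP synthase subunits 5 of 15 were called higher in each set and 0 lower. Atp5b had 624 to 963 normalised reads (median 798) in floxed microglia at 6 h, against 470.5 to 587 (median 523) in untreated floxed microglia (log2 fold change 0.73 ± 0.14, adjusted p = 0.000157). Atp5b in doubly floxed controls had 791, 776, 699.8, 744 and 825 at 6 h, against 377 to 480.6 (median 468) untreated (log2 fold change 0.75 ± 0.10, adjusted p = 1.76e-07), and every 6 h library of both sets lay above its untreated group. Atp5g1, the second of the c-subunit genes, had 106.3 to 261 normalised reads (median 165) in floxed microglia at 6 h, against 48.1 to 90.9 (median 59.4) in untreated floxed microglia (log2 fold change 1.18 ± 0.22, adjusted p = 6.96e-05), without overlap. The doubly floxed controls had 106.3, 147, 119.97, 102.1 and 258 at 6 h, against 80.9 to 98.7 (median 90.3) untreated (log2 fold change 0.62 ± 0.19, adjusted p = 0.00883), also separate. Atp5g1 was not called within experiment E alone or without 6 h doubly floxed library 5 (log2 fold changes 0.40 to 0.41). Cyc1, the cytochrome c1 of complex III, had 213, 232, 224, 215 and 251 normalised reads in doubly floxed microglia at 6 h, against 119 to 154 (median 141.8) in untreated doubly floxed microglia (log2 fold change 0.71 ± 0.17, adjusted p = 0.000617), without overlap. In floxed controls it had 285 to 443 (median 356) at 6 h, against 139 to 303 (median 156.3) untreated (log2 fold change 0.95 ± 0.18, adjusted p = 8.36e-05), and the overlap came from untreated floxed library 1.

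Ndufa12, an accessory subunit of complex I, had 81 to 115.7 normalised reads (median 99.8) in floxed microglia at 6 h, against 28.2 to 56 (median 43.3) in untreated floxed microglia (log2 fold change 0.85 ± 0.21, adjusted p = 0.00183), without overlap. Ndufa12 in doubly floxed controls had 59.5, 90.3, 97.3, 135 and 199 at 6 h, against 45.2 to 130.3 (median 74.4) untreated (log2 fold change 0.60 ± 0.16, adjusted p = 0.00239), with overlap. Ndufa12 was not called without the experiment term or within experiment F alone (log2 fold changes 0.53 to 0.69). Sdhc, a membrane anchor of complex II, had 33.8 to 66.1 normalised reads (median 57.5) in floxed microglia at 6 h, against 13.3 to 36.8 (median 30.9) in untreated floxed microglia (log2 fold change 1.32 ± 0.31, adjusted p = 0.00115), and the ranges overlapped. Its doubly floxed values were not called, at 33.6, 41.7, 42.6, 30.04 and 52.4 at 6 h, against 20.03 to 38.5 (median 34.3) untreated (log2 fold change 0.30 ± 0.30, adjusted p = 0.463). Ndufaf4, called lower at 48 h in floxed controls, was higher at 6 h in doubly floxed ones, with 96.9, 63.3, 71.6, 90.1 and 80.3 at 6 h, against 30.1 to 57.5 (median 36.1) untreated, and no overlap (log2 fold change 1.04 ± 0.26, adjusted p = 0.00125). Ndufaf4 was not called within experiment F alone (log2 fold change 1.14). In floxed controls its 6 h values of 35.8 to 101 (median 88.3) at 6 h, against 21 to 72.1 (median 58.1) untreated, did not pass the test (log2 fold change 0.61 ± 0.34, adjusted p = 0.157).

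Ndufaf7, a methyltransferase that acts during complex I assembly, was lower in both sets. It had 9.38 to 27.3 normalised reads (median 18.6) in floxed microglia at 6 h, against 30.9 to 69.9 (median 48.2) in untreated floxed microglia (log2 fold change -1.70 ± 0.32, adjusted p = 7.99e-05). Among the doubly floxed controls it had 18.2, 12.7, 19.99, 21 and 18.6 at 6 h, against 30.5 to 52.7 (median 47.2) untreated (log2 fold change -1.26 ± 0.17, adjusted p = 6.38e-08), and neither pair of groups overlapped. Cox7a2l, a factor that joins complexes III and IV into supercomplexes, had 63.8 to 97.5 normalised reads (median 83.3) in floxed microglia at 6 h, against 106.6 to 181 (median 135) in untreated floxed microglia (log2 fold change -1.04 ± 0.19, adjusted p = 5.97e-05), without overlap. Cox7a2l in doubly floxed controls had 51.2, 50.1, 52.1, 155 and 165 at 6 h, against 154 to 228 (median 199) untreated (log2 fold change -1.13 ± 0.19, adjusted p = 6.44e-06), where the 2 libraries of experiment F read 155 and 165 and the 3 of experiment E 50.1 to 52.1. Cox7a2l was not called within experiment F alone (log2 fold change -0.42). Cox7a2l had a log2 fold change of -1.70 within experiment E alone. Ndufb3, a membrane-arm subunit of complex I, had 22.4 to 71.3 normalised reads (median 52.4) in floxed microglia at 6 h, against 65.5 to 117 (median 95.9) in untreated floxed microglia (log2 fold change -1.33 ± 0.23, adjusted p = 3.76e-05), with overlap. The doubly floxed controls had 57.3, 50.1, 54.7, 123 and 170.0 at 6 h, against 106.8 to 186 (median 125.6) untreated (log2 fold change -0.65 ± 0.18, adjusted p = 0.00378). Ndufb3 was not called within experiment F alone (log2 fold change -0.10). Ndufb3 had a log2 fold change of -1.03 within experiment E alone.

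Ndufa6, an accessory subunit with the LYR fold, in doubly floxed controls had 173, 151, 165, 308 and 420.2 at 6 h, against 299 to 462 (median 362) untreated, with overlap (log2 fold change -0.68 ± 0.16, adjusted p = 0.00051). Ndufa6 was not called within experiment F alone (log2 fold change -0.19). Ndufa6 had a log2 fold change of -1.06 within experiment E alone. Atp5s and Atp5sl were lower in floxed controls. Atp5s had 6.99 to 13.8 normalised reads (median 8.33) in floxed microglia at 6 h, against 16.7 to 33.6 (median 20.4) in untreated floxed microglia (log2 fold change -1.21 ± 0.30, adjusted p = 0.00171), without overlap, and in doubly floxed controls it was not called (log2 fold change -0.30 ± 0.28, adjusted p = 0.43). Atp5sl had 41.5 to 78.4 normalised reads (median 60.0) in floxed microglia at 6 h, against 66.9 to 114.5 (median 85.5) in untreated floxed microglia (log2 fold change -0.71 ± 0.20, adjusted p = 0.00481), with overlap. Atp5sl was not called within experiment A alone (log2 fold change -0.60). In doubly floxed controls Atp5sl had 58.9, 47.5, 40.5, 28.5 and 34.9 at 6 h, against 49.7 to 71.1 (median 59.8) untreated (log2 fold change -0.53 ± 0.16, adjusted p = 0.00612). Atp5sl was not called within experiment E alone (log2 fold change -0.21). Atp5sl had a log2 fold change of -0.94 within experiment F alone.

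At 24 h, which among the controls was measured in the floxed set only, 12 members were called higher and 5 lower, against 14.2% and 15% of all genes, with a median of 0.28 against 0.01. As at 6 h, the fold changes rest on the 3 untreated libraries of experiment A, while ranges are over all untreated floxed libraries. Within experiment A alone 5 were higher and 1 lower, and without 24 h floxed library 2 the count of called members was 6, or 9 without untreated floxed library 2. Atp5g1 had 150.4, 165, 159.8 and 177 normalised reads in floxed microglia at 24 h, against 48.1 to 90.9 (median 59.4) in untreated floxed microglia (log2 fold change 1.25 ± 0.22, adjusted p = 7.67e-05). Cox5b had 253, 244, 329 and 356 normalised reads in floxed microglia at 24 h, against 127 to 193 (median 163) in untreated floxed microglia (log2 fold change 0.83 ± 0.15, adjusted p = 0.000125). Neither gene's groups overlapped, and the same was true of Uqcrq, Ndufs3 and Atp5b. Uqcrq had 391, 331, 478 and 324 at 24 h, against 151 to 279 (median 219.9) untreated (log2 fold change 0.82 ± 0.20, adjusted p = 0.00282). Ndufs3, a core subunit of the hydrophilic arm of complex I, had 49.4, 60.7, 78.7 and 65.3 at 24 h, against 27.4 to 38.4 (median 35.6) untreated (log2 fold change 0.74 ± 0.22, adjusted p = 0.0122). Ndufs3 was not called without untreated floxed library 3 or without 24 h floxed library 2 (log2 fold changes 0.58 to 0.63). Atp5b had 821, 814, 1052 and 634 at 24 h, against 470.5 to 587 (median 523) untreated (log2 fold change 0.70 ± 0.14, adjusted p = 0.000498).

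The 5 members called lower at 24 h were Atp5s, Ndufaf7, Ndufb3, Cox7a2l and Atp5sl, and the 6 h and 24 h comparisons share the untreated libraries. Atp5s had 11.2, 12.1, 13.3 and 8.16 normalised reads in floxed microglia at 24 h, against 16.7 to 33.6 (median 20.4) in untreated floxed microglia (log2 fold change -1.02 ± 0.30, adjusted p = 0.0108), without overlap, and the other 4 overlapped. Atp5s was not called within experiment A alone or without untreated floxed library 3 (log2 fold changes -0.92 to -0.78). Ndufaf7 had 44.9, 25.7, 15.7 and 36.7 at 24 h, against 30.9 to 69.9 (median 48.2) untreated (log2 fold change -0.95 ± 0.32, adjusted p = 0.0245). Ndufaf7 was not called without the experiment term, within experiment A alone, with mitochondrial share as a covariate, without untreated floxed library 1 or without 24 h floxed library 1 or 2 (log2 fold changes -1.05 to -0.63). Ndufb3 had 80.8, 44.3, 55.7 and 85.7 at 24 h, against 65.5 to 117 (median 95.9) untreated (log2 fold change -0.63 ± 0.23, adjusted p = 0.0411). Ndufb3 was not called without the experiment term, within experiment A alone, in the Il10ra mutant table, without untreated floxed library 2 or 3 or without 24 h floxed library 1, 2 or 4 (log2 fold changes -0.64 to -0.42). Cox7a2l had 83.1, 110.7, 104 and 141.8 at 24 h, against 106.6 to 181 (median 135) untreated (log2 fold change -0.59 ± 0.19, adjusted p = 0.0174). Cox7a2l was not called without the experiment term, within experiment A alone, without untreated floxed library 3 or without 24 h floxed library 3 (log2 fold changes -0.69 to -0.33). Atp5sl had 66.2, 68.6, 55.7 and 78.5 at 24 h, against 66.9 to 114.5 (median 85.5) untreated (log2 fold change -0.59 ± 0.20, adjusted p = 0.024). Atp5sl was not called without the experiment term, without untreated floxed library 1 or 3 or without 24 h floxed library 2 (log2 fold changes -0.60 to -0.35).

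At 7 days 1 of 88 members was called higher and 0 lower, against 2.46% and 0.567% of all genes (3.03% in either direction), and the members' median was 0.05. Ndufs7, a core subunit that carries an iron-sulphur cluster, had 278, 278, 263 and 264 normalised reads in floxed microglia at 7 days, against 158.1 to 243 (median 181) in untreated floxed microglia (log2 fold change 0.51 ± 0.14, adjusted p = 0.03), without overlap. Ndufs7 was not called with a term for the other experiments, without untreated floxed library 1, 4, 5 or 6 or without 7-day floxed library 1, 2, 3 or 4 (log2 fold changes 0.41 to 0.53). That term cannot adjust the 7-day libraries, which are all of experiment D. Markers of other cell types were high in the 7-day libraries: 7 of 7 neutrophil markers tested, 5 of 5 red blood cell markers, 4 of 4 monocyte markers and 5 of 5 border macrophage markers were called higher. Neutrophil markers took 0.223 to 1.59% of reads, against 0.000539 to 0.0746% untreated. Their part in the value of Ndufs7 was not tested. Ndufaf7 lay within the untreated range, with 37.4, 36.2, 44.2 and 44.4 at 7 days, against 30.9 to 69.9 (median 48.2) untreated (log2 fold change -0.16 ± 0.27, adjusted p = 0.883). Cyc1 overlapped its untreated range, with 154, 131.7, 164 and 157.8 at 7 days, against 139 to 303 (median 156.3) untreated (log2 fold change -0.18 ± 0.17, adjusted p = 0.725).

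**Figure D3:**
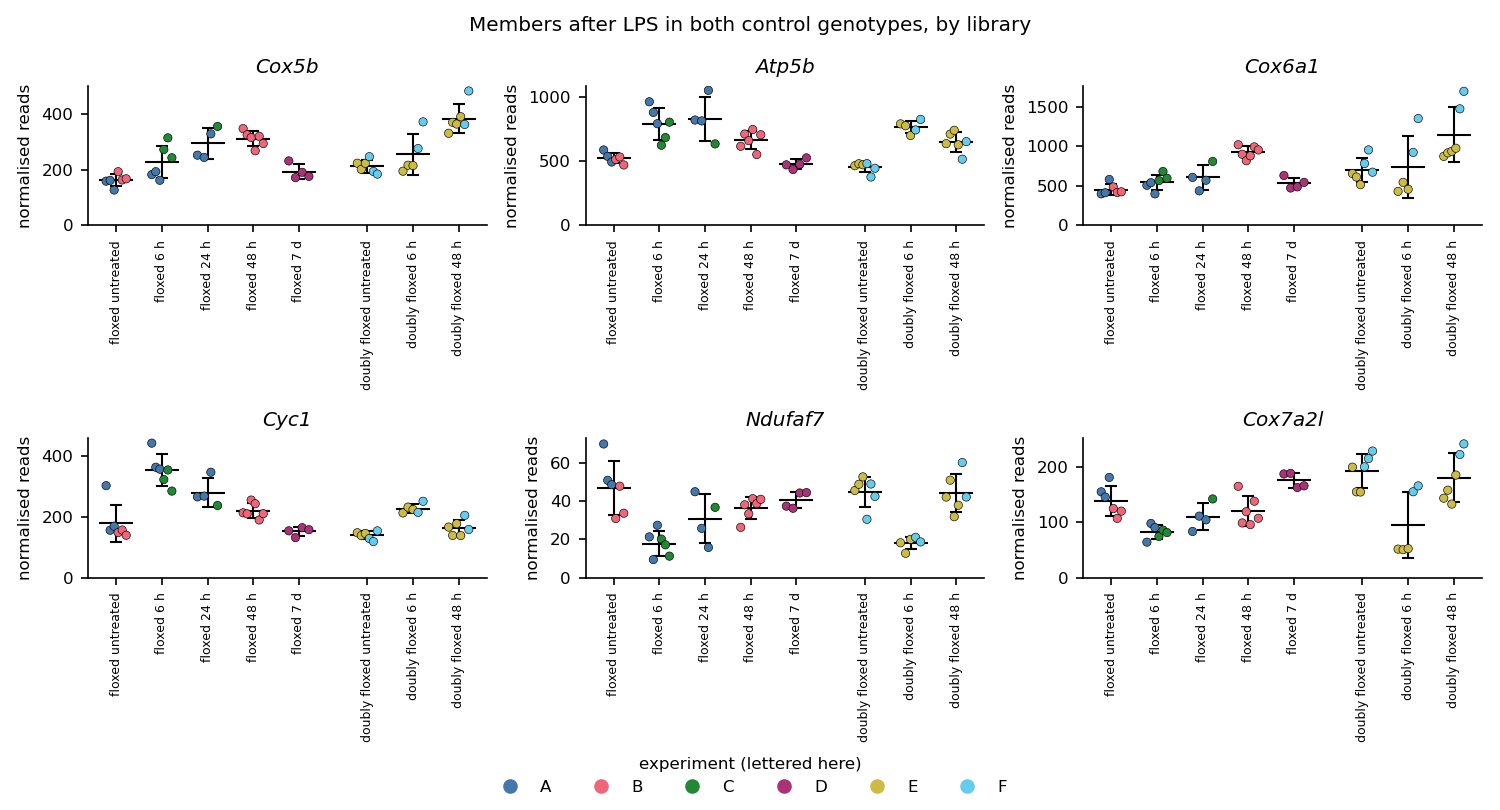
Normalised reads per library of 6 members in floxed controls (untreated, 6 h, 24 h, 48 h and 7 days) and doubly floxed controls (untreated, 6 h and 48 h), where points are libraries coloured by experiment and bars are the mean ± SD. Cox5b at 48 h (269 to 348 in floxed and 331 to 484 in doubly floxed libraries) lies above every untreated library of its set, and Ndufaf7 at 6 h (9.38 to 27.3 and 12.7 to 21.0) below every untreated one.

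Il10ra mutants were first compared with their own untreated group. At 6 h 18 of 89 members were called higher and 13 lower, against 26.5% and 28.6% of all genes (55.1% in either direction), at 24 h 37 and 10, against 26% and 27.4%, and at 48 h 36 and 2, against 17.7% and 17.9%. The medians were 0.12, 0.31 and 0.42. Quantile normalisation gave 8 higher and 18 lower at 6 h. Within experiment A alone the counts were 7 higher and 6 lower at 6 h and 13 and 4 at 24 h, and within experiment C alone 7 and 4 at 6 h, and the 48 h fold changes rest on the 3 libraries of experiment B. Markers moved too: at 6 h 6 of 8 microglia markers and 2 of 4 border macrophage markers tested were called lower, whereas 3 of 4 red blood cell markers were higher (median 2.67), as were 3 of 4 monocyte markers, with 1 lower (median 1.51). At 24 h and at 48 h 8 of 8 microglia markers were lower, and at 48 h 3 of 7 neutrophil markers were higher and 2 of 4 monocyte markers higher, with 1 lower. Their part in the members' values was not tested.

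Atp5b had 542 to 917 (median 779.6) normalised reads at 6 h, 919.7, 869.6, 706, 798 and 781 at 24 h and 862, 835, 1011, 664 and 606 at 48 h, against 354 to 523 (median 428) untreated, and no time overlapped with the untreated libraries. The log2 fold changes of Atp5b were 0.74 ± 0.09, adjusted p = 8.45e-10 at 6 h, 1.00 ± 0.10, adjusted p = 5.22e-12 at 24 h and 1.01 ± 0.13, adjusted p = 9.34e-09 at 48 h. At 6 h that of Atp5b was 0.48 after quantile normalisation. Cox5b had 123.6 to 276 (median 209.8) at 6 h, 318, 237, 281, 336 and 308 at 24 h and 319, 259, 351, 392 and 406 at 48 h, against 83.7 to 184 (median 165) untreated, with overlap at 6 h alone. Its log2 fold changes were 0.58 ± 0.12, adjusted p = 6.02e-05 at 6 h, 1.04 ± 0.13, adjusted p = 5.83e-09 at 24 h and 1.07 ± 0.17, adjusted p = 1.88e-06 at 48 h.

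Ndufaf7 stayed low in Il10ra mutants through 48 h. It had 6.89 to 18.3 (median 17) normalised reads at 6 h, 17.5, 12.4, 13.1, 15.9 and 16.3 at 24 h and 18.3, 16.5, 16.8, 16.9 and 13.6 at 48 h, against 32.7 to 53 (median 40.0) untreated, and no time overlapped with the untreated libraries. Its log2 fold changes were -1.62 ± 0.20, adjusted p = 3.6e-09 at 6 h, -1.46 ± 0.23, adjusted p = 4.51e-07 at 24 h and -0.96 ± 0.29, adjusted p = 0.00729 at 48 h. Cyc1 had 184 to 386 normalised reads (median 289) in Il10ra mutant microglia at 6 h, against 127 to 172 (median 157.7) in untreated Il10ra mutant microglia (log2 fold change 0.83 ± 0.13, adjusted p = 2.74e-07), without overlap. Atp5g1 had 171, 119, 154, 172 and 186 normalised reads in Il10ra mutant microglia at 24 h, against 43.4 to 112.1 (median 70.1) in untreated Il10ra mutant microglia (log2 fold change 1.02 ± 0.16, adjusted p = 5.49e-07), also separate. Ndufs3 had 57.9, 74.2, 60.1, 62.5 and 60.5 normalised reads in Il10ra mutant microglia at 24 h, against 16.9 to 46.9 (median 34.6) in untreated Il10ra mutant microglia (log2 fold change 0.78 ± 0.17, adjusted p = 0.000165), separate as well. Ndufa12 had 66.2, 84.7, 105, 101.8 and 111.6 at 24 h, against 33 to 73.1 (median 45.3) untreated (log2 fold change 0.89 ± 0.18, adjusted p = 3.14e-05), with overlap. Ndufa12 was not called within experiment A alone (log2 fold change 0.62). Among members called lower, Ndufaf2, an assembly factor of complex I, had 15.6, 7.61, 6.57, 8.58 and 9.3 normalised reads in Il10ra mutant microglia at 24 h, against 18.3 to 26.9 (median 23.6) in untreated Il10ra mutant microglia (log2 fold change -1.22 ± 0.23, adjusted p = 1.78e-05), without overlap.

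Ndufa6 had 75.9 to 169 normalised reads (median 112.2) in Il10ra mutant microglia at 6 h, against 185 to 264 (median 232) in untreated Il10ra mutant microglia (log2 fold change -0.83 ± 0.14, adjusted p = 2.69e-06), without overlap. Atp5sl had 30.7 to 71 (median 49.9) at 6 h, against 68.6 to 88.1 (median 76.7) untreated (log2 fold change -0.81 ± 0.14, adjusted p = 2.6e-06) and Ndufb3 had 41.8 to 70.3 (median 47.8) at 6 h, against 61.6 to 101.7 (median 87.1) untreated (log2 fold change -0.68 ± 0.16, adjusted p = 0.00035), and both overlapped. Ndufb3 was not called within experiment C alone (log2 fold change -0.45). Ndufaf3, another assembly factor, had 36.1 to 46.7 (median 40.1) at 6 h, against 46.4 to 68.1 (median 57.7) untreated (log2 fold change -0.50 ± 0.14, adjusted p = 0.00297), with overlap. Ndufaf3 was not called within experiment A alone or within experiment C alone (log2 fold changes -0.54 to -0.43). Cox7c had 157, 139, 171, 243 and 198 normalised reads in Il10ra mutant microglia at 48 h, against 16.9 to 131 (median 85.5) in untreated Il10ra mutant microglia (log2 fold change 1.55 ± 0.31, adjusted p = 7.07e-05), without overlap. The 16.9 came from untreated library 6, which stood far below the other untreated mutant libraries. It is 1 of the 3 untreated libraries of experiment B, on which this fold change rests. Cox6c, another small subunit of complex IV, had 206, 169, 239, 195 and 162 at 48 h, against 76 to 127 (median 96.8) untreated (log2 fold change 0.99 ± 0.25, adjusted p = 0.00171), likewise separate. Sdha, the flavoprotein that oxidises succinate in complex II, was lower, with 87.6, 103, 129.9, 82.5 and 84.9 at 48 h, against 112.6 to 174 (median 140.2) untreated, and overlap (log2 fold change -0.55 ± 0.16, adjusted p = 0.0044). Sdha was not called without 48 h Il10ra mutant library 1 (log2 fold change -0.42).

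Against floxed controls of the same time, Il10ra mutants had few members called before 48 h. Untreated, 0 of 89 members were called in limma, edgeR or DESeq2, with 5 at an unadjusted p under 0.05, and 0.00865% of all genes were called. At 6 h 2 were higher and 0 lower, against 1.89% and 1.42% of all genes (3.31% in either direction), and at 24 h 0 were higher and 2 lower, against 1.11% and 2.4% (3.5%). With libraries left out singly these counts of called members ran from 0 to 5 at 6 h and from 0 to 6 at 24 h. The libraries of low mitochondrial share left out, 1 member was higher and 3 were lower at 6 h. The 6 h calls were Cox7a2l and Cox8a. Cox7a2l had 77.9 to 187 normalised reads (median 95.6) in Il10ra mutant microglia at 6 h, against 57.1 to 88.9 (median 75.7) in floxed microglia at 6 h (log2 fold change 0.52 ± 0.14, adjusted p = 0.0347). Cox7a2l was not called without the experiment term, within experiment A alone, with mitochondrial share as a covariate, with edgeR, without 6 h floxed library 1, 4, 5 or 6 or without 6 h Il10ra mutant library 1 or 5 (log2 fold changes 0.22 to 0.51). Cox7a2l had a log2 fold change of 0.84 within experiment C alone. Cox8a had 179.7 to 247 (median 191) in Il10ra mutants, against 78.2 to 198 (median 149.9) in floxed controls (log2 fold change 0.50 ± 0.14, adjusted p = 0.0329), and both genes' ranges overlapped. Cox8a was not called after quantile normalisation, without the experiment term, within experiment A alone, within experiment C alone, with mitochondrial share as a covariate, without the libraries of low mitochondrial share, with edgeR, without 6 h floxed library 1, 3, 4 or 6 or without 6 h Il10ra mutant library 1, 5 or 6 (log2 fold changes 0.25 to 0.58). The 24 h calls were Ndufa13 and Atp5s. Ndufa13 had 293, 214, 294, 288 and 316 normalised reads in Il10ra mutant microglia at 24 h, against 414, 295, 328 and 417 in floxed microglia at 24 h (log2 fold change -0.45 ± 0.13, adjusted p = 0.0444), with overlap. Ndufa13 was not called without the experiment term, within experiment A alone, without 24 h floxed library 3 or 4 or without 24 h Il10ra mutant library 2, 3, 4 or 5 (log2 fold changes -0.47 to -0.36).

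At 48 h the Il10ra mutants differed from floxed controls in both directions. Of 89 members 8 were called higher and 16 lower, against 12.7% and 15.2% of all genes, so the shares of members called (8.99% and 18%) lay near the background. The members' median was 0.01, as over all genes. With the experiment term these fold changes rest on the 3 mutant libraries of experiment B. Without mutant library 2 there were 5 members higher and 4 lower, without mutant library 1 there were 3 and 12, and without floxed library 1 there were 5 and 10. Of the 7 core subunits of complex I 4 were higher and 0 lower (median 0.43), whereas of 28 accessory subunits 0 were higher and 8 lower (median -0.11), a difference between the classes that was not tested. Against doubly floxed controls 2 core subunits were higher and 1 lower, and 3 accessory subunits were higher and 7 lower (median -0.18). In these libraries 8 of 8 microglia markers were called lower and 3 of 7 neutrophil markers higher, at 0.00277 to 0.119% of reads, against 0.00235 to 0.0225% in floxed controls. Their part in these differences was not tested.

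Ndufs3 had 57, 50.2, 63.4, 64.8 and 83.4 normalised reads in Il10ra mutant microglia at 48 h, against 26.6 to 40.4 (median 37.7) in floxed microglia at 48 h (log2 fold change 0.65 ± 0.21, adjusted p = 0.0146). Ndufs7 had 328, 263, 304, 329 and 301 in Il10ra mutants, against 199.8 to 228 (median 214) in floxed controls (log2 fold change 0.47 ± 0.14, adjusted p = 0.00764), and every mutant library lay above every control library for both genes. Ndufs3 was not called without 48 h Il10ra mutant library 3 (log2 fold change 0.57). Ndufs7 was not called without 48 h Il10ra mutant library 1 (log2 fold change 0.40). The other core subunits called higher were Ndufs8 and Ndufv1. Atp5b had 862, 835, 1011, 664 and 606 in Il10ra mutants, against 510.1 to 694 (median 628) in floxed controls (log2 fold change 0.56 ± 0.12, adjusted p = 0.00027), with overlap. Atp5b had a log2 fold change of 0.36 without the experiment term. Ndufaf4 had 50.9, 63.5, 73.8, 34.6 and 40.2 in Il10ra mutants, against 18.8 to 44.2 (median 30.3) in floxed controls (log2 fold change 1.08 ± 0.30, adjusted p = 0.00477), with overlap. Uqcrc2, a core protein of complex III, had 128.3, 126.5, 141.98, 85.2 and 107.6 in Il10ra mutants, against 78 to 112.8 (median 97.2) in floxed controls (log2 fold change 0.47 ± 0.16, adjusted p = 0.0265), with overlap. Uqcrc2 was not called without the experiment term, with mitochondrial share as a covariate, without 48 h floxed library 1 or 3 or without 48 h Il10ra mutant library 1, 2 or 3 (log2 fold changes 0.29 to 0.50).

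On the lower side, Ndufa13 had 325, 201, 294, 327 and 252 normalised reads in Il10ra mutant microglia at 48 h, against 439 to 569 (median 512) in floxed microglia at 48 h (log2 fold change -0.90 ± 0.14, adjusted p = 1.45e-06). Ndufv3, an accessory subunit near the NADH-binding site, had 141.6, 90.7, 117, 112.7 and 111.4 in Il10ra mutants, against 174 to 219 (median 200.3) in floxed controls (log2 fold change -0.79 ± 0.14, adjusted p = 3.78e-05). Ndufaf7 had 18.3, 16.5, 16.8, 16.9 and 13.6 in Il10ra mutants, against 24.3 to 38.3 (median 35.4) in floxed controls (log2 fold change -0.91 ± 0.27, adjusted p = 0.0089). For all 3 genes no mutant library reached the lowest control library. Cox6a2 had 88.6, 28.8, 55.3, 57.7 and 44 in Il10ra mutants, against 66.2 to 125.6 (median 91.5) in floxed controls (log2 fold change -0.79 ± 0.30, adjusted p = 0.0416), with overlap. Cox6a2 was not called with edgeR, with DESeq2, without 48 h floxed library 1, 2, 4 or 6 or without 48 h Il10ra mutant library 2 or 3 (log2 fold changes -0.84 to -0.38). Sdhc had 37.7, 30.4, 34.5, 27.5 and 46.2 in Il10ra mutants, against 44.2 to 87.2 (median 59.5) in floxed controls (log2 fold change -0.79 ± 0.30, adjusted p = 0.0406), with overlap. Sdhc was not called with mitochondrial share as a covariate, without 48 h floxed library 1, 3, 4 or 5 or without 48 h Il10ra mutant library 1, 2 or 3 (log2 fold changes -0.86 to -0.51).

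The difference between the 48 h LPS responses themselves, the change in Il10ra mutants minus that in floxed controls, passed the test for 9 of 89 members, against 16.4% of all genes. Atp5b (0.62 ± 0.15, adjusted p = 0.00236), Ndufaf4 (1.18 ± 0.38, adjusted p = 0.0246) and Uqcrc2 (0.65 ± 0.21, adjusted p = 0.0232) responded more positively in the mutants. Ndufa13 (-0.80 ± 0.17, adjusted p = 0.000799), Ndufv3 (-0.71 ± 0.18, adjusted p = 0.00482), Ndufb2 (-0.83 ± 0.27, adjusted p = 0.0271), Ndufb11 (-0.61 ± 0.21, adjusted p = 0.0382), Cox6a1 (-0.57 ± 0.18, adjusted p = 0.0214) and Sdhc (-1.18 ± 0.37, adjusted p = 0.0219) responded more negatively. Ndufaf4 was not called without the experiment term or without 48 h Il10ra mutant library 2 or 3 (log2 fold changes 0.96 to 1.16). Uqcrc2 was not called within experiment B alone or without 48 h Il10ra mutant library 3 (log2 fold changes 0.51 to 0.60). Ndufb2 was not called without the experiment term, without untreated floxed library 1, without 48 h floxed library 5, without untreated Il10ra mutant library 4 or without 48 h Il10ra mutant library 2 (log2 fold changes -0.78 to -0.47). Ndufb11 was not called without the experiment term, with mitochondrial share as a covariate, without untreated floxed library 2, 3, 4 or 5, without 48 h floxed library 1, 4 or 5, without untreated Il10ra mutant library 5 or 6 or without 48 h Il10ra mutant library 2 or 3 (log2 fold changes -0.64 to -0.46). Cox6a1 was not called without 48 h Il10ra mutant library 2 (log2 fold change -0.36). Sdhc was not called without 48 h Il10ra mutant library 2 (log2 fold change -1.10). Ndufv3 was not called without 48 h Il10ra mutant library 2 (log2 fold change -0.54). Without 48 h Il10ra mutant library 2 the count of members differing was 4. Cox6a1 was higher at 48 h in Il10ra mutants too, with 636, 404, 624, 723 and 589.8 at 48 h, against 323 to 532 (median 424) untreated, and overlap (log2 fold change 0.42 ± 0.15, adjusted p = 0.0288). Cox6a1 was not called after quantile normalisation, within experiment B alone or without 48 h Il10ra mutant library 1 or 3 (log2 fold changes 0.30 to 0.33). Cox6a1 had a log2 fold change of 0.63 without 48 h Il10ra mutant library 2. At 6 h and 24 h 0 members differed in response, with 13 and 7 at an unadjusted p under 0.05 in limma and 0% and 0.0433% of all genes called, and edgeR and DESeq2 gave 0 as well.

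Il10ra mutants at 48 h were also compared with doubly floxed controls, a test that rests on the 2 mutant libraries of experiment E. Of 90 members 9 were called higher and 19 lower, against 16.6% and 17.3% of all genes, with a median of -0.22. Without mutant library 5 there were 4 higher and 7 lower, and without mutant library 4 there were 3 and 12. Cox6a2 had 92.6, 30.3, 58, 60.2 and 46 normalised reads in Il10ra mutant microglia at 48 h, against 153 to 388 (median 270.2) in doubly floxed microglia at 48 h (log2 fold change -2.16 ± 0.34, adjusted p = 3.45e-06). Ndufaf7 had 19.2, 17.4, 17.6, 17.6 and 14.3 in Il10ra mutants, against 31.8 to 60.2 (median 42.1) in doubly floxed controls (log2 fold change -1.38 ± 0.23, adjusted p = 7.92e-06), and neither gene's groups overlapped. Ndufa3, an accessory subunit of complex I, had 176, 132.4, 219, 165 and 115.7 in Il10ra mutants, against 248 to 439.9 (median 344) in doubly floxed controls (log2 fold change -1.18 ± 0.36, adjusted p = 0.0101), without overlap. Ndufa3 was not called without 48 h Il10ra mutant library 5 (log2 fold change -0.92). Cox6b2, the testis isoform of subunit 6B, was at 1.06, 2.24, 0.84, 0.925 and 0 in Il10ra mutants, against 7.52 to 18.6 (median 14.4) in doubly floxed controls (log2 fold change -2.97 ± 0.68, adjusted p = 0.000683), separate but few reads. Cox6b2 had a log2 fold change of -1.49 at a pseudocount of 5, -4.46 with edgeR and -4.75 with DESeq2.

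The Il10ra mutant libraries of experiment B are given first and those of experiment E last. They stood apart for Ndufa9, Ndufa12, Atp5j and Ndufaf8, nearly met for Ndufs3 and overlapped for Ndufs7. Ndufa9, an accessory subunit of complex I, had 139, 118, 156.2, 58.3 and 64.2 in Il10ra mutants, against 126.04 to 164 (median 155.5) in doubly floxed controls (log2 fold change -1.26 ± 0.17, adjusted p = 3.92e-07), where the mutant libraries of experiment E lay under all controls and those of experiment B overlapped them. Ndufa9 had a log2 fold change of -0.57 without the experiment term. Ndufa12 had 79.8, 59.5, 85.7, 148.1 and 147 in Il10ra mutants, against 62.8 to 131 (median 77.5) in doubly floxed controls (log2 fold change 1.06 ± 0.22, adjusted p = 0.000218), with overlap. Ndufa12 was not called without the experiment term (log2 fold change 0.21). Ndufs3 had 59.6, 52.8, 66.4, 67.6 and 87.2 in Il10ra mutants, against 30.3 to 70.8 (median 47) in doubly floxed controls (log2 fold change 0.94 ± 0.22, adjusted p = 0.00106), with overlap. Ndufs3 was not called without the experiment term or without 48 h Il10ra mutant library 5 (log2 fold changes 0.44 to 0.75). Ndufs7 had 343, 276, 318, 343 and 315 in Il10ra mutants, against 163 to 349 (median 206) in doubly floxed controls (log2 fold change 0.78 ± 0.20, adjusted p = 0.00193), with overlap. Ndufs7 was not called without the experiment term (log2 fold change 0.49). Atp5j, the coupling factor 6 of the ATP synthase, had 175, 154, 204, 99.9 and 140.3 in Il10ra mutants, against 229.5 to 274 (median 261) in doubly floxed controls (log2 fold change -1.12 ± 0.26, adjusted p = 0.000752), without overlap. Atp5j was not called without 48 h Il10ra mutant library 4 (log2 fold change -0.87). Ndufaf8, an assembly factor of complex I, had 96.9, 93.2, 99.95, 167 and 178 in Il10ra mutants, against 80.0 to 217 (median 99.8) in doubly floxed controls (log2 fold change 0.82 ± 0.25, adjusted p = 0.00966), with overlap. Ndufaf8 was not called without the experiment term or without 48 h Il10ra mutant library 4 or 5 (log2 fold changes 0.06 to 0.86).

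Against doubly floxed controls, no member was called in the double mutants by limma or edgeR. Untreated, at 6 h and at 48 h 0 of 90 members were called in limma, with 4, 27 and 1 at an unadjusted p under 0.05, against 0.0254%, 0.0678% and 0.0169% of all genes called (0.0254% higher and 0.0424% lower at 6 h). Over all 11800 genes tested 1077 untreated, 1374 at 6 h and 393 at 48 h had an unadjusted p under 0.05. edgeR also called 0 members at each time, and DESeq2 called 0 untreated, 4 at 6 h (3 higher and 1 lower) and 0 at 48 h. Of all genes DESeq2 called 2 untreated, 95 at 6 h and 3 at 48 h, and edgeR called 2, 17 and 2. Without 6 h double mutant library 3 limma called 2 members higher and 1 lower. The medians were -0.11, 0.07 and -0.10. Cox6a2 had 123.7, 269.6, 443 and 279.9 normalised reads in double mutant microglia at 48 h, against 153 to 388 (median 270.2) in doubly floxed microglia at 48 h (log2 fold change -0.12 ± 0.26, adjusted p = 1). Ndufaf7 had 41.5, 40.4, 49.7 and 33.9 in double mutants, against 31.8 to 60.2 (median 42.1) in doubly floxed controls at 48 h (log2 fold change -0.08 ± 0.18, adjusted p = 1). Ndufa13 had 535, 661, 719.8 and 811 in double mutants, against 515 to 833 (median 618) in doubly floxed controls (log2 fold change -0.01 ± 0.18, adjusted p = 1). The groups of all 3 genes overlapped. The LPS responses of the double mutants differed from those of the doubly floxed controls for 0 members at 6 h and at 48 h, with 14 and 1 at an unadjusted p under 0.05 in limma, 0 in edgeR and DESeq2, and 0.00847% and 0% of all genes called.

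Double mutants at 48 h were then set against the Il10ra mutants, again through the mutant libraries of experiment E. Of 90 members 13 were called higher and 8 lower, against 14.9% and 13.7% of all genes. Without Il10ra mutant library 5 there were 6 higher and 4 lower, and without library 4 there were 8 and 3. This comparison and the previous one with doubly floxed controls share the Il10ra mutant libraries. Cox6a2 had 123.7, 269.6, 443 and 279.9 normalised reads in double mutant microglia at 48 h, against 92.6, 30.3, 58, 60.2 and 46 in Il10ra mutant microglia at 48 h (log2 fold change 2.04 ± 0.36, adjusted p = 3.52e-05). Ndufaf7 had 41.5, 40.4, 49.7 and 33.9 in double mutants, against 19.2, 17.4, 17.6, 17.6 and 14.3 in Il10ra mutants (log2 fold change 1.30 ± 0.24, adjusted p = 7.92e-05). Ndufa13 had 535, 661, 719.8 and 811 in double mutants, against 339.6, 212, 307, 341 and 264 in Il10ra mutants (log2 fold change 0.87 ± 0.25, adjusted p = 0.00662), and for all 3 genes every double mutant library lay above every Il10ra mutant library. Ndufa13 was not called without 48 h Il10ra mutant library 5 (log2 fold change 0.69). Ndufs3 had 41.1, 41.1, 79 and 65.4 in double mutants, against 59.6, 52.8, 66.4, 67.6 and 87.2 in Il10ra mutants (log2 fold change -0.90 ± 0.24, adjusted p = 0.00371), with overlap. Ndufs3 was not called without the experiment term or without 48 h Il10ra mutant library 5 (log2 fold changes -0.72 to -0.27).

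Several other members of this comparison overlapped between the groups. Ndufa9 had 133, 136, 124.4 and 137.7 in double mutants, against 139, 118, 156.2, 58.3 and 64.2 in Il10ra mutants (log2 fold change 1.09 ± 0.19, adjusted p = 1.85e-05). Ndufa9 was not called without the experiment term (log2 fold change 0.42). Atp5h, the stalk subunit d of the ATP synthase, had 333, 417, 357 and 366 in double mutants, against 434, 258, 446, 208 and 161 in Il10ra mutants (log2 fold change 0.95 ± 0.28, adjusted p = 0.0091). Atp5h was not called without the experiment term or without 48 h Il10ra mutant library 5 (log2 fold changes 0.40 to 0.77). Ndufa12 had 81.7, 60.9, 101 and 108.3 in double mutants, against 79.8, 59.5, 85.7, 148.1 and 147 in Il10ra mutants (log2 fold change -1.16 ± 0.23, adjusted p = 0.000228). Ndufa12 was not called without the experiment term (log2 fold change -0.18). Atp5g3 had 441, 419, 610.1 and 730.1 in double mutants, against 529, 485, 504, 841 and 766 in Il10ra mutants (log2 fold change -1.02 ± 0.21, adjusted p = 0.000278). Atp5g3 was not called without the experiment term (log2 fold change -0.18). Cox5a had 257, 225.2, 379 and 419.8 in double mutants, against 208, 200.3, 238, 425 and 372 in Il10ra mutants (log2 fold change -0.84 ± 0.25, adjusted p = 0.0093). Cox5a was not called without the experiment term or without 48 h Il10ra mutant library 4 (log2 fold changes -0.75 to 0.17).

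**Figure D4:**
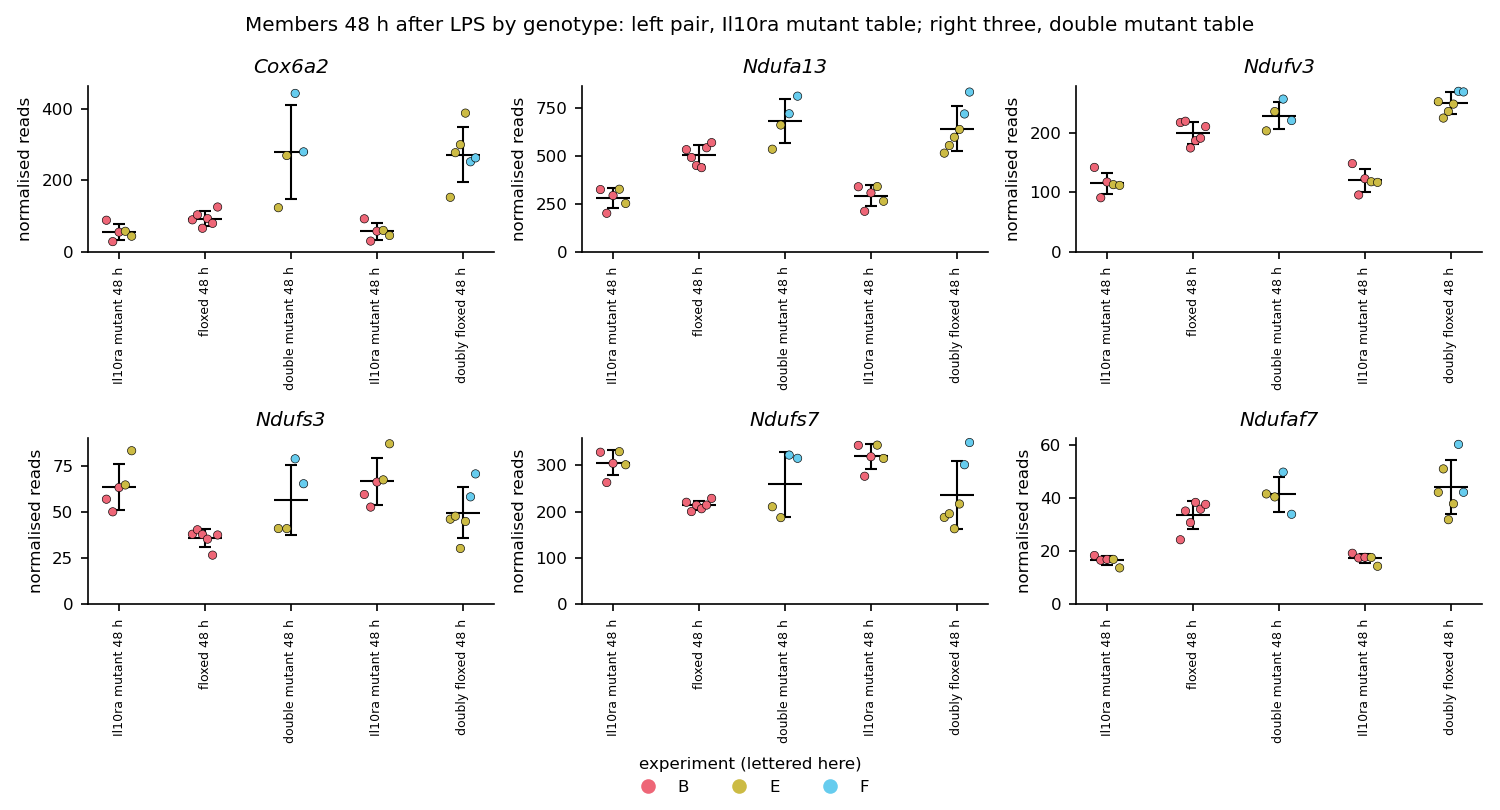
Normalised reads per library at 48 h of 6 members in Il10ra mutants and floxed controls (left pair, Il10ra mutant table) and in double mutants, Il10ra mutants and doubly floxed controls (right group, double mutant table), where points are libraries coloured by experiment and bars are the mean ± SD. Ndufaf7 lies between 13.6 and 19.2 in every Il10ra mutant library, below all libraries of the other genotypes, and Ndufs7 overlaps in the right group.

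Some isoforms known from other tissues had few reads in most libraries. Cox7a1, the heart and muscle isoform of subunit 7A, had 0 to 2.99 (median 2.11) normalised reads in 48 h floxed libraries, against 0 to 2.5 (median 0.429) untreated, and Cox8b, the corresponding isoform of subunit 8, had 0 to 0.9 (median 0) in 48 h floxed libraries, against 0 to 2.49 (median 0) untreated. At 6 h floxed library 6 stood apart, with 12.6 for Cox7a1 and 35.0 for Cox8b, where the other 5 libraries had 1.01 to 4.28 and 0 to 3.77, and 24 h floxed library 3 had 8.98 for Cox8b. Neither gene passed the filter on low values in the table of controls. Atp5g2, the third c-subunit gene, had 19.4, 12.3, 14.4, 7.99 and 11.4 normalised reads in Il10ra mutant microglia at 48 h, against 3.23 to 9.15 (median 4.66) in floxed microglia at 48 h (log2 fold change 1.38 ± 0.49, adjusted p = 0.0292), with overlap. Atp5g2 was not called with mitochondrial share as a covariate, without 48 h floxed library 1 or without 48 h Il10ra mutant library 1, 2 or 3 (log2 fold changes 1.17 to 1.52). Cox6a2 in untreated C57BL/6 microglia had 10.6, 22.5, 27.6 and 18.2 normalised reads, against 25.9 to 60.0 (median 41.9) in untreated floxed controls, with overlap. Cox6a1, the other isoform of subunit 6A, had 513 to 603 in C57BL/6, against 337 to 498 in floxed controls, without overlap. Such differences cannot be told apart from the experiment, since experiment G holds C57BL/6 libraries only.

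**Figure D5:**
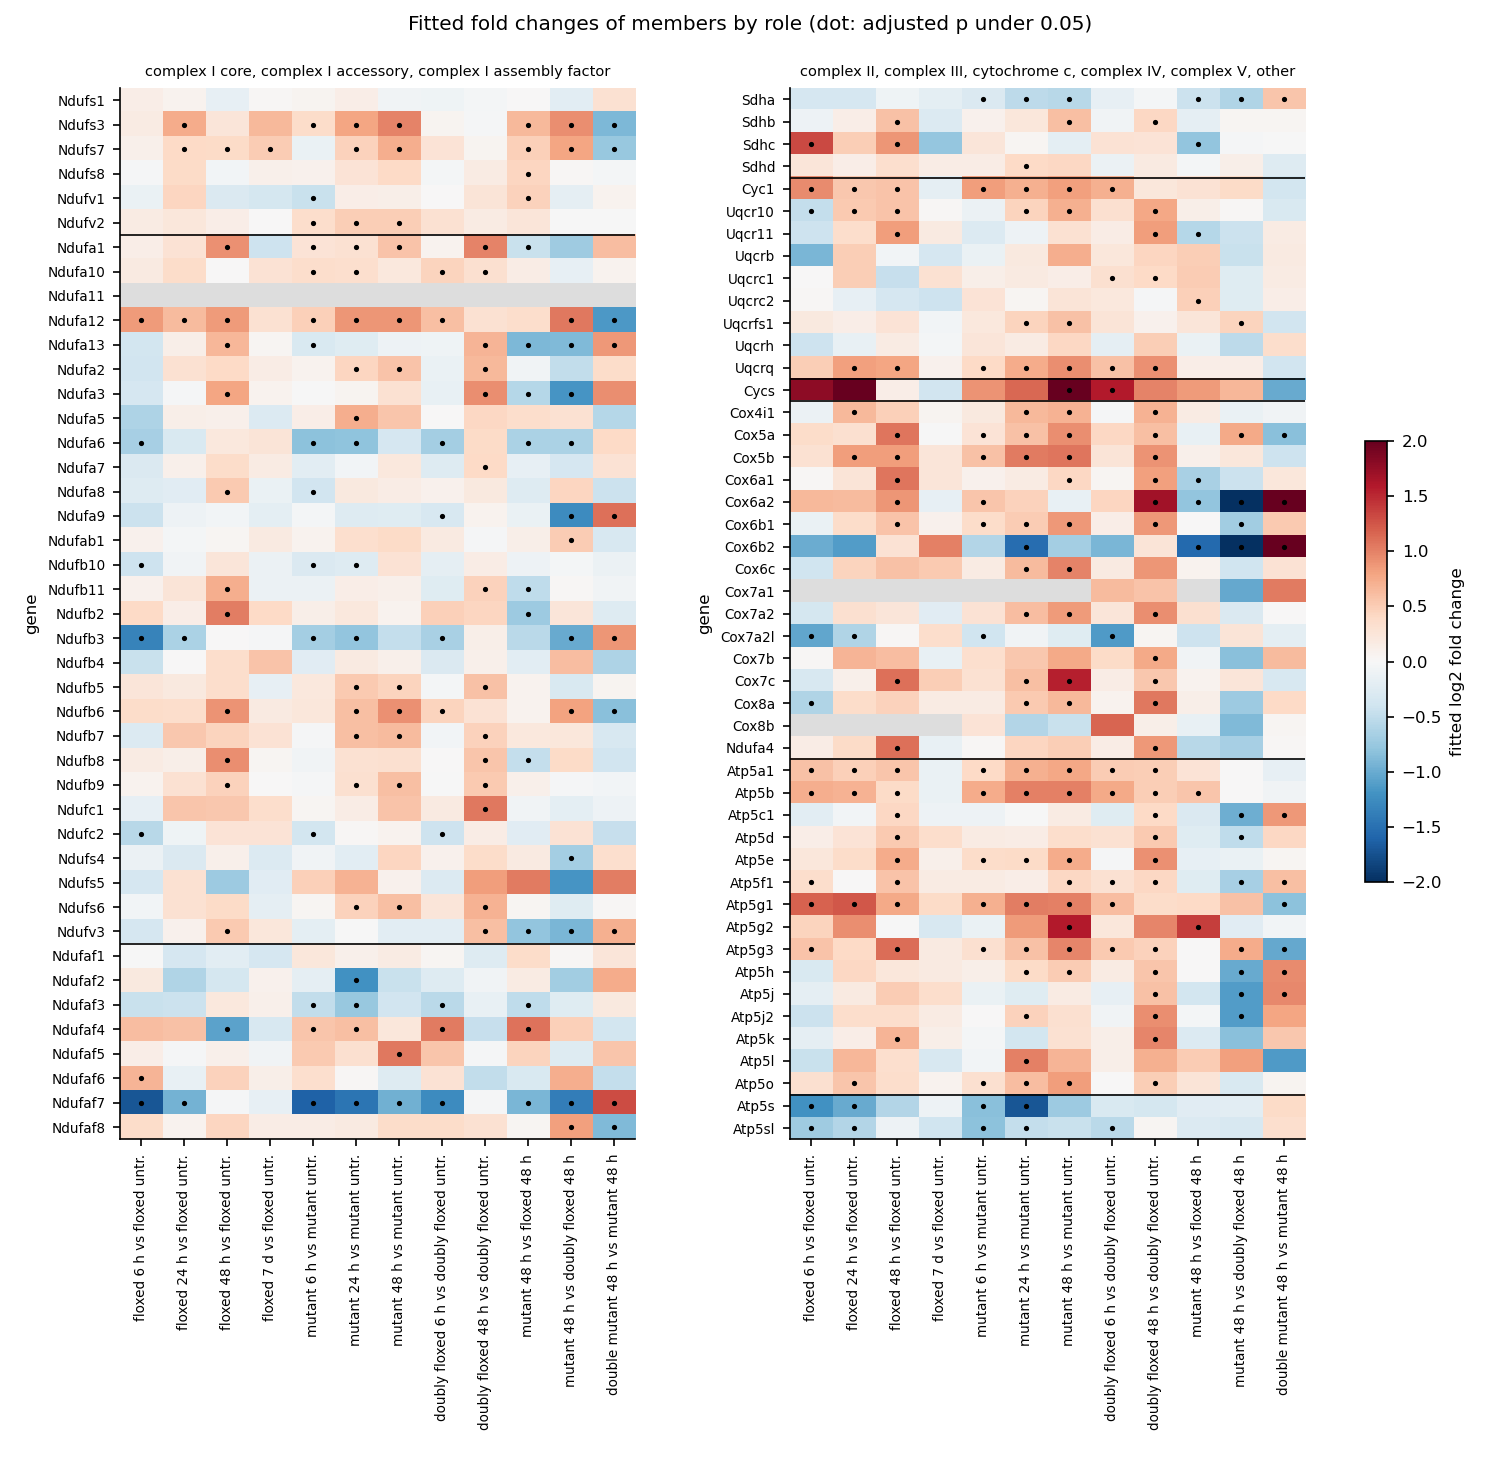
Fitted log2 fold changes of 90 members by role in 12 comparisons, named with the first group over the second, where dots mark an adjusted p under 0.05, grey marks a gene not tested and colours saturate beyond 2 in either direction. Rows of complexes IV and V are mostly red at 48 h in floxed, Il10ra mutant and doubly floxed microglia, whereas Ndufaf7 is blue at 6 h in all 3.

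Lists of other genes of mitochondrial function and glycolysis were counted beside the members. In floxed controls at 6 h 28 of 73 mitochondrial ribosome proteins were called higher and 4 lower, 7 of 13 import genes were higher and 1 lower, and 10 of 14 glycolysis genes were higher and 1 lower, against 20.4% and 21.1% of all genes. Slc2a1, the glucose transporter GLUT1, had a log2 fold change of 3.01 ± 0.24 (adjusted p = 8.37e-11), Ldha, lactate dehydrogenase A, 1.84 ± 0.15 (adjusted p = 7.82e-11) and Pprc1, a coactivator of nuclear respiratory genes, 1.91 ± 0.20 (adjusted p = 1.33e-08). Ppargc1b, of the same list of mitochondrial biogenesis genes as Pprc1, had 1.93 ± 0.51 (adjusted p = 0.00289). The genes named in this paragraph are those of lowest p on their lists at 6 h, so they do not stand for the lists. Counts for the biogenesis list and for further lists of assembly factors are not given here. In the citric acid cycle 5 of 16 genes tested were higher and 2 lower, with Idh3a at 1.53 ± 0.21 (adjusted p = 8.89e-07) and Idh2 at -1.87 ± 0.20 (adjusted p = 2.48e-08). At 48 h in floxed controls 4 of 73 ribosome proteins were higher and 1 lower, 1 of 13 import genes was higher and 1 lower, 3 of 14 glycolysis genes were higher and 0 lower, and 3 of 16 citric acid cycle genes were higher and 1 lower, against 11.1% and 7.9% of all genes. Of the 13 genes of the mitochondrial genome on the list, 7 were tested. At 48 h 4 of them were higher and 0 lower in doubly floxed controls, and 0 were called in floxed controls by limma, with 0 at an unadjusted p under 0.05 (1 at 6 h, where 0 were called as well). In 48 h Il10ra mutants against floxed controls 20 of 73 ribosome proteins were higher and 3 lower, and 5 of 13 import genes were higher and 0 lower, against 12.7% and 15.2% of all genes.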

How the data were processed

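The deposited tables hold a normalised signal per gene and library, reads divided by a size factor, from MARS-seq mapped to mm10 per the submitters' processing notes. No source used here names the aligner or the read counter. Whole reads came back for 100% of values (within 0.01) when a library was divided by what 1 read is worth in it, 540642 to 2489084 reads a library. Rows named as dates or left blank, 0.0568 to 0.103% of a library's total, were left out. A gene was tested where at least 4 libraries, the size of the smallest group, reached 5 normalised reads.

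The test was limma with a trend (limma 3.58.1, R 4.3.3) on log2(value + 1) for group and experiment over all grouped libraries of a table, so a fold change of a low gene is understated. The tests used 3 tables normalised apart, each tested by itself. P-values were adjusted by Benjamini-Hochberg over 11103, 11555 or 11800 genes and called under 0.05. On the recovered reads, edgeR 4.0.16 (quasi-likelihood) called 2503 and DESeq2 1.42.0 called 2513 of all genes at 48 h in floxed controls, against 2108 by limma. The other alternatives were a pseudocount of 5, no filter, quantile normalisation, no experiment term, single experiments, mitochondrial share as a covariate or a reason to leave a library out, a replicate block and each library left out. The second experiment of a comparison and all alternatives for differences between LPS responses were chosen after seeing the data. The fits were tested on simulated data that held no differences between experiments, so the experiment term was not put to the test.

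The labels do not name the mice, so p-values measure the spread between libraries, which may be partly technical. The members and lists were chosen with earlier results of these data known. Named are up to 5 called members of largest fold change in each direction with a group mean of at least 20, the member of highest untreated level in each role group and the isoform families. The values of 1 member named by this rule are not reported here, though it is in the counts. Each is followed across comparisons, and members named elsewhere (all those that differed in LPS response, Ndufs8 and Ndufv1) were chosen after their values were seen.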

Additional observations from a re-analysis of the deposited data

Results flagged for a closer look

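The share of reads from the mitochondrial genome held 3 libraries far from their groups. It was 2.38% in 48 h double mutant library 2, against 1.35 to 1.5% in the other libraries of that group, 0.0948% in untreated double mutant library 1, against 0.959 to 1.27%, and 0.195% in untreated floxed library 1, against 0.924 to 1.1%. The share of reads in the oxidative phosphorylation members was 1.38% in 24 h Il10ra mutant library 1, against 1.3 to 1.32% in the other 4. These come from 32 sets of libraries examined, and chance marks about 1 in 20 of such sets.

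At 48 h the LPS response of 9 of 89 members differed between Il10ra mutants and floxed controls by limma's test of the difference. This is a smaller share than the 16.4% of all genes called. The log2 response of the mutants minus that of the controls was 0.619 for Atp5b, 1.18 for Ndufaf4 and 0.652 for Uqcrc2. It was -0.574 for Cox6a1, -0.798 for Ndufa13, -0.615 for Ndufb11, -0.833 for Ndufb2, -0.705 for Ndufv3 and -1.18 for Sdhc.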

How the results depend on the processing

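Of 402 counts of called members recomputed under alternatives, 336 stayed within 1.5 times the reported count, as did 169 of 171 counts of differing responses. The counts below mostly stand without the share of all genes called under the same alternative, so their changes are not read as particular to the members. The 6 h count in floxed controls (19) was 37 without the experiment term, 10 within experiment A and 29 in the Il10ra mutant table, and 12 to 27 with libraries left out singly. At 24 h (17) it was 6 within experiment A and 6 to 17 with libraries left out, at 48 h (35) 22 to 37. At 7 days (1) it was 2 after quantile normalisation, with mitochondrial share as a covariate, without libraries of low mitochondrial share and by DESeq2. It was 0 with a term for the other experiments and 0 to 1 with libraries left out. In doubly floxed controls at 48 h (42) it was 25 without the experiment term, 18 within experiment E and 25 within experiment F. In Il10ra mutants against their untreated group it was 13 within experiment A and 11 within experiment C at 6 h (31), and 17 within experiment A at 24 h (47).

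For Il10ra mutants against floxed controls at 6 h (2) the count was 0 without the experiment term, within experiment A and by edgeR, 4 without libraries of low mitochondrial share and 0 to 5 with libraries left out. At 24 h (2) it was 1 at a pseudocount of 5, without a filter and without libraries of low mitochondrial share, 0 within experiment A, 4 with mitochondrial share as a covariate and 0 to 6 with libraries left out. At 48 h (24) it was 9 to 25 with libraries left out, 11 to 28 against doubly floxed controls (28), and 10 to 20 for double mutants against Il10ra mutants (21). Against doubly floxed controls the double mutants at 6 h (0) had 4 by DESeq2, which called 95 of all genes, and 0 to 3 with libraries left out. The count of differing 48 h responses (9) was 4 to 11 with libraries left out.

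The members' median moved by more than its spread between libraries in 14 of 402 values. For 48 h Il10ra mutants against floxed controls (0.01) it was -0.14 with mitochondrial share as a covariate. Against untreated Il10ra mutants at 6 h (0.12) it was -0.0093 after quantile normalisation, 0.0499 within experiment A, 0.0401 with the covariate and 0.0572 to 0.134 with libraries left out. At 24 h (0.31) it was 0.25 after quantile normalisation, 0.26 within experiment C, 0.23 with the covariate and 0.26 to 0.33 with libraries left out, and at 48 h (0.42) 0.32 to 0.53. It was 0.49 within experiment F for doubly floxed controls at 6 h (0.10), 0.23 without the experiment term for double mutants against Il10ra mutants (0.05) and 0.16 to 0.36 with libraries left out in floxed controls at 24 h (0.28).

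Of 19669 fold changes of named members, 627 called ones lost the call, 265 gained one and 6 changed sign. Those 6 were Ndufaf4 in Il10ra mutants at 6 h within experiment A (-0.0611), Ndufb6 in doubly floxed controls at 6 h within experiment E (-0.0629), Cox5a in 48 h Il10ra mutants against doubly floxed controls without the experiment term (-0.10), and for double mutants against Il10ra mutants, also without it, Cox5a (0.17), Ndufaf8 (0.0032) and Ndufb6 (0.0298). The cause was not tested.

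Replicate numbers are shared between groups. Every same-numbered pair deviated together (correlations of 0.131 to 0.226, 5 pairs) for doubly floxed controls at 6 h, in no other comparison, and with the experiment removed these were -0.138 to -0.0251, so the numbers were not taken as pairing. With the replicate block that count was 23 (21 without). The blocked count was 0 for 24 h and 12 for 48 h Il10ra mutants against floxed controls, 22 for 48 h Il10ra mutants against untreated, 13 for double mutants against Il10ra mutants and 4 for the differing 48 h responses, and the blocked 24 h median in Il10ra mutants was 0.27. No other count moved by over 1.5 times with the block. Fitting 7 days within 1 experiment was not run, since experiment D holds no untreated library. Depth limits members of few reads, such as Cox7a1 and Cox8b, which were not tested in the table of controls.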

Other observations

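The 48 h library that 1 label gives as a doubly floxed control and another as a double mutant held 1930004 reads. The oxidative phosphorylation members took 1.59% of them and the mitochondrial genome 1.52%. In the 48 h libraries of experiment E the members took 1.51 and 1.59% in double mutants, and 1.54 to 1.7% in doubly floxed controls.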
